A study of Rattus norvegicus with 6 samples.

Results

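The 10 genes described here encode growth factors and receptor tyrosine kinases of the PDGF, FGF, EGF and HGF pathways. They were chosen by gene symbol: the ligands Pdgfa, Fgf2, Hbegf, Areg and Ereg, and the receptors Pdgfra, Pdgfrb, Fgfr1, Egfr and Met. All 10 are among the 18631 genes of the deposited tables, and all 10 passed the filter on low counts that left 13423 genes to test. They were measured by sequencing of polyadenylated RNA from rat vascular smooth muscle cells, which contract the vessel wall. In the 3 libraries labelled MIAT knockdown, a long noncoding RNA was targeted with small interfering RNAs and antisense oligonucleotides, 50 nM in all, for 72 h. The 3 libraries titled Scr have the genotype label WT and are called Scr control here. The same treatment text stands on all 6 libraries, so what was given to the control cells is not known. The labels name no animal, passage or medium, so any growth factors in the medium are not known either.

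Receptor tyrosine kinases span the cell membrane. A ligand outside the cell brings receptors together, the kinase parts phosphorylate each other, and adaptor proteins then start the RAS to ERK and PI3K to AKT cascades. In smooth muscle, PDGF acting on its beta receptor is the classic signal for migration and division, FGF2 acts through FGFR1 with heparan sulfate as a co-receptor, and ligands of the EGF family such as HB-EGF, amphiregulin and epiregulin are made as membrane proteins and released by proteases. ERK signalling in turn induces its own inhibitors, among them Sprouty proteins and dual-specificity phosphatases, and several of the EGF family ligands.

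Total counts ranged from 17793811 to 20121161 per library. Miat was not analysed here, so the groups are named by their labels and the depth of the knockdown is not given. Smooth muscle markers were abundant in both groups, with a summed level of 4311 to 6187 FPKM (counts per gene length and library total) in knockdown and 4650 to 5789 FPKM in control libraries. Of the 9, 3 fell with the replicate block described next, where 11.1% of all tested genes fell. The 7 endothelial markers in the table summed to 15.9 to 17.8 FPKM in knockdown and 16.8 to 19.1 FPKM in control libraries, led by Egfl7. Of the 5 tested 1 fell, against the same 11.1%. The 5 macrophage and leukocyte markers summed to 3.74 to 6.96 and 4.26 to 11.5 FPKM, led by Cd68, and 0 of 3 tested passed. Within these lists the leukocyte gene Ptprc had no count in any control library and a mean of 0.0174 CPM (counts normalised to the TMM-scaled library size) in the knockdown libraries. The endothelial gene Cdh5 stood at 0.0179 and 0.0187 CPM in knockdown and control libraries. Both were picked outside the rule for naming genes given below. The lists are described by the sums above, not by these low values. In their titles the libraries carry the numbers 1 to 3 within each group, and same-numbered libraries deviated together from their group means, with correlations across genes of 0.67, 0.49 and 0.56. The fit with the number as a block is therefore given beside the fit without it. The labels do not say whether each library is a culture of its own. The p-values therefore rest on the spread among these samples alone, and that spread may be technical.

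With the libraries paired by number, 3 of the 5 receptors fell (Pdgfra, Pdgfrb and Fgfr1) and 1 rose (Met), while 2 of the 5 ligands rose (Pdgfa and Hbegf) and 0 fell. Areg, Ereg, Fgf2 and Egfr did not pass. No label states a pairing, so the fit without the block had been set as the main fit and the block as an alternative. The pairing was inferred from these same libraries. A gene is said to have risen or fallen where edgeR's quasi-likelihood test with the replicate block gave an adjusted p under 0.05, by the Benjamini-Hochberg method over all 13423 genes. Every rise and fall below rests on that inferred pairing. Errors of fitted log2 fold changes are standard errors (SE). By that rule 6 of the 10 genes were called, against 21.6% of all tested genes and 25.5% of those with a mean of at least 5 CPM. Of the 10 genes 3 rose (background 10.5%) and 3 fell (background 11.1%), and their median log2 fold change was 0.15 against -0.01 over all tested genes. Scaled by total counts, with the block, 3 rose and 2 fell, and over all genes 2822 rose and 819 fell, against 1412 and 1486 with TMM. Without the block edgeR called 0 of the 10 and 0 of all genes, with 2 of the 10 genes, Pdgfrb and Areg, at an unadjusted p under 0.05, where 19.2% of all genes were. DESeq2 without the block called Pdgfrb (adjusted p = 0.0162) and none of the other 9, against 5.21% of all genes. Within pairs, 8 of the 10 genes differed in the same direction in 3 of 3 pairs, 4 upward and 4 downward, as did 56.5% of all tested genes (28.0% upward and 28.5% downward). Without pair 1 or without pair 2, Pdgfra was the single gene of the 10 still called, where 8.93% and 5.41% of all tested genes were. Without pair 3 all 6 were called, where 30.3% of all tested genes were. The number of calls thus moved over all genes as well as in the 10.

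**Figure D1:**
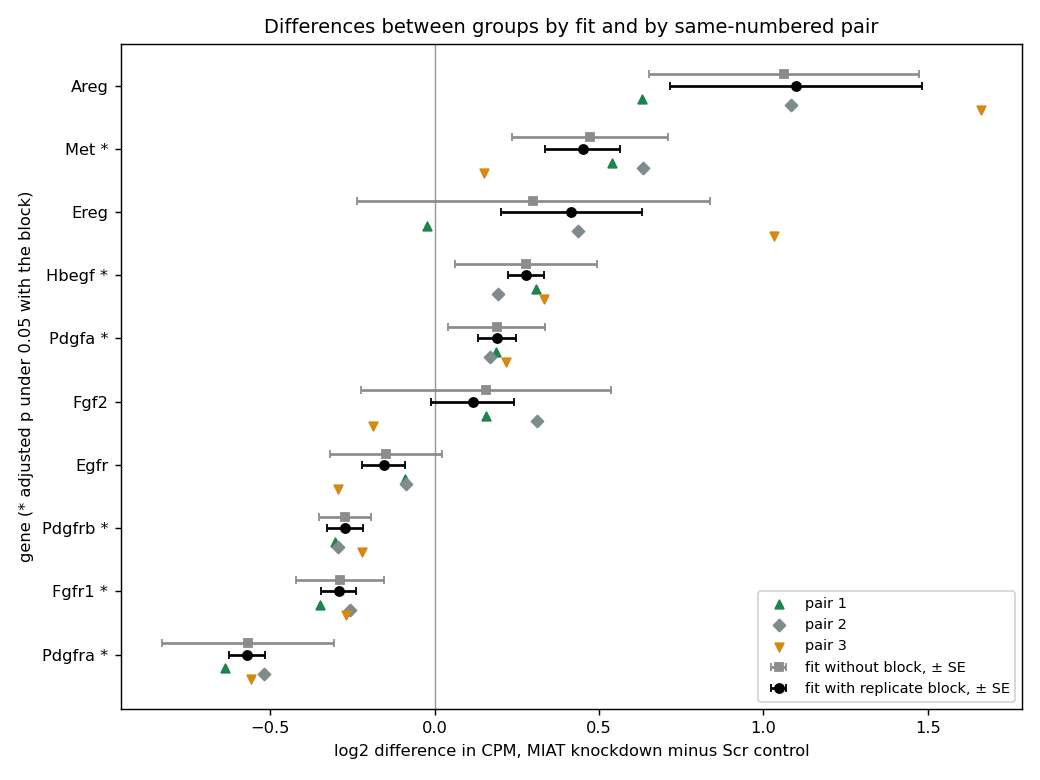
Log2 difference in CPM between MIAT knockdown and Scr control libraries (x axis) for each of the 10 genes (y axis). Black circles are the fit with the replicate block and grey squares the fit without it, both with the standard error, and coloured symbols are the 3 same-numbered pairs; Pdgfra, at -0.57, lies farthest left and Areg, at 1.10, farthest right with the widest error of the block fit.

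Pdgfra, the alpha receptor for PDGF and a gene that fibroblast-like mesenchymal cells express strongly, had the largest fall. It stood at 406, 447 and 675 CPM in control libraries 1, 2 and 3 and at 261, 312 and 458 CPM in knockdown libraries 1, 2 and 3. The groups overlapped, because knockdown library 3 exceeded control libraries 1 and 2, but each knockdown library was below its same-numbered control, by a log2 difference of -0.64, -0.52 and -0.56. The block fit put the fall at 1.49-fold, a log2 fold change of -0.57 ± 0.0548 (SE; edgeR adjusted p = 0.00129). Without the block the same log2 fold change had a standard error of 0.262 (adjusted p = 0.300). Pdgfra was the single one of the 10 genes that passed in all 11 fits with the block, with log2 fold changes of -0.60 to -0.45. Leaving out 1 library without the block moved its log2 fold change more, to -0.31 without control library 3 and -0.83 without knockdown library 3.

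The base sequence before the start of Pdgfra is shown because this gene had the largest fall that passed. It comes from RefSeq, build GRCr8, at chr14:33408517-33408766 on the minus strand, the 250 bases upstream of the annotated start, 5′ to 3′. The build of the deposited counts is not given in the sources used here, and no count was placed with these coordinates. Of the 10 genes 7 had a promoter entry in that set. Capitals mark a match to TGANTCA, the pattern searched on both strands for AP-1 sites, in which N is any base. The match here is TGAATCA, 35 to 29 bases before the start. A match to so loose a pattern does not make it an AP-1 site. The pattern was found in 6.34% of 33469 windows of this length.
Pdgfra: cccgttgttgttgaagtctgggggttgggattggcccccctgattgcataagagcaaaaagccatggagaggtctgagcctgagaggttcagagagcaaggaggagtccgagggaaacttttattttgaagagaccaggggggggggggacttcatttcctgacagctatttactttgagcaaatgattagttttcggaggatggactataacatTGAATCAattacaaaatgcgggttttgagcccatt
No TATA box (TATAAA) or cyclic AMP response element (TGACGTCA) was found in this window.

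Pdgfra is expressed by fibroblasts as well as by smooth muscle cells in culture, so the fibroblast markers are given beside it. The 6 markers listed summed to 675 to 733 FPKM in knockdown and 756 to 970 FPKM in control libraries, which did not overlap. In CPM, the groups did not overlap for 26.0% of single tested genes. Of the 5 that were tested, 3 fell (11.1% of all tested genes did): Lum, Dcn and Dpt, genes of matrix proteoglycans and of dermatopontin. Lum fell by a log2 fold change of 0.55 and Dcn by 0.34. Pi16 and Col14a1 did not pass. Control library 3, the highest in Pdgfra, was also the highest in Col14a1, at 57.8 CPM against 6.63 to 18.3 CPM in the other 5 libraries, and in Dpt, at 18.4 against 2.20 to 10.2 CPM. Without pair 3 the log2 fold change of Pdgfra with the block was -0.58. The part of these markers in the Pdgfra result was not tested, and in these bulk samples fewer cells of a type and less RNA per cell cannot be told apart.

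Pdgfrb, the beta receptor and the PDGF receptor that marks smooth muscle cells and pericytes, was one of a pair of genes among the 10, with Areg, whose groups did not overlap (26.0% of all tested genes did not, 14.2% higher and 11.8% lower in knockdown libraries). Its level was 662, 697 and 677 CPM in control libraries 1 to 3 and 536, 569 and 581 CPM in knockdown libraries 1 to 3. The 3 libraries of each group lay close together, at 679 ± 17.9 CPM in control and 562 ± 23.3 CPM in knockdown (SD, n = 3). The log2 fold change was -0.27 in both fits, with a standard error of 0.0539 with the block (edgeR adjusted p = 0.0108) and 0.0792 without it (adjusted p = 0.147, unadjusted p = 0.0109). With the block the call ended under total count scaling (log2 fold change -0.16, adjusted p = 0.0611) and with a correction for gene length (-0.20, 0.0628), and without pair 1 (-0.25, 0.0945) or pair 2 (-0.26, 0.116). Without the block and without 1 library the log2 fold change was -0.29 to -0.24.

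The ratio of Pdgfrb to Pdgfra in FPKM was higher in the knockdown library of each pair. The ratio was 2.30, 2.21 and 1.42 in control libraries 1 to 3 and 2.90, 2.58 and 1.79 in knockdown libraries 1 to 3. Both groups had their lowest ratio in library 3, and the groups overlapped. The difference between the changes of the receptors was not tested.

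Fgfr1, the main FGF receptor of mesenchymal cells, fell with the block, as Pdgfrb did. It stood at 434, 542 and 476 CPM in control libraries 1 to 3 and at 341, 454 and 395 CPM in knockdown libraries 1 to 3. Each knockdown library was below its pair, while knockdown library 2 exceeded control library 1. Its fall was 1.22-fold, or -0.29 on the log2 scale, and the standard error was 0.0539 with the block (edgeR adjusted p = 0.00863) and 0.134 without it (adjusted p = 0.303). The adjusted p with the block was 0.0808 without pair 1 and 0.0793 without pair 2. Leaving out 1 library without the block gave log2 fold changes between -0.39 (without knockdown library 2) and -0.19 (without knockdown library 1).

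Egfr, the receptor for HB-EGF, amphiregulin and epiregulin, did not pass. Its levels were 66.4, 83.9 and 64.4 CPM in control libraries 1 to 3 and 62.5, 79.0 and 52.5 CPM in knockdown libraries 1 to 3. It was lower in 3 of 3 pairs, by log2 differences of 0.09, 0.09 and 0.29, and the groups overlapped. With the block its log2 fold change was -0.16 ± 0.0663 (edgeR adjusted p = 0.129), and with total counts and the block it was -0.05 (adjusted p = 0.620). Single libraries left out of the fit without the block gave -0.31 (without knockdown library 2) to -0.02 (without knockdown library 3).

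Met, the receptor for hepatocyte growth factor, was the single receptor of the 5 that rose. It was at 17.4, 14.0 and 12.5 CPM in control libraries 1 to 3 and at 25.3, 21.8 and 13.9 CPM in knockdown libraries 1 to 3. Knockdown libraries 1 and 2 were above all controls, whereas knockdown library 3 was within the control range. The within-pair log2 differences were 0.54, 0.63 and 0.15, and the log2 fold change with the block was 0.45 with a standard error of 0.114 (edgeR adjusted p = 0.0257), a 1.37-fold rise. The call ended with the block in DESeq2 (0.44, adjusted p = 0.0816), without pair 1 (0.40, 0.122) and without pair 2 (0.36, 0.178). In the fit without the block it was 0.29 without knockdown library 1 and 0.69 without knockdown library 3. Hgf, the gene of its ligand, was added after its values were seen and was at 23.0 ± 8.90 CPM in knockdown and 25.9 ± 11.4 CPM in control libraries (SD, n = 3; edgeR adjusted p = 0.325 with the block).

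The window before Met is shown because Met had the largest rise that passed. It lies at chr4:46784496-46784745 on the plus strand of GRCr8 (RefSeq), the 250 bases upstream of the annotated start, 5′ to 3′, and holds none of the 8 motifs searched, so no base is in capitals.
Met: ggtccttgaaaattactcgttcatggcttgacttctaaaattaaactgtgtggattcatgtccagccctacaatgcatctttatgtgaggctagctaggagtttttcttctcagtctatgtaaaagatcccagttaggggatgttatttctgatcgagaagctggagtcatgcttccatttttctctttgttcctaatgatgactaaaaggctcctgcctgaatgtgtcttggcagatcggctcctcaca
GC bases made up 42.0% of it, against a median of 51.2% over all windows. The other motifs searched on both strands were the GC box (GGGCGG), the EGR site (GCGNGGGCG), the E-box (CACGTG), the ETS site (CCGGAA) and the CArG box, which 30.5%, 4.29%, 5.59%, 12.6% and 1.50% of all windows held.

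**Figure D2:**
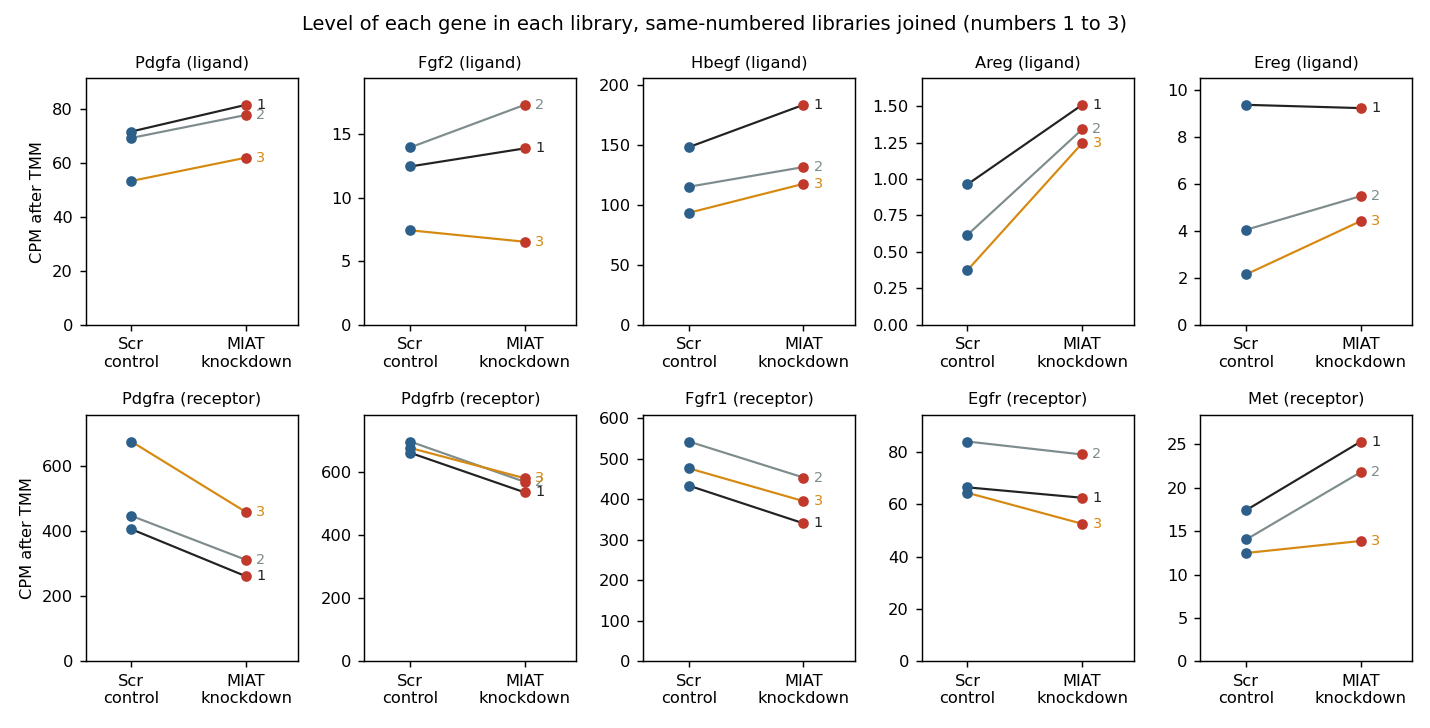
Level of each of the 10 genes in each library, in CPM after TMM scaling (y axis, from 0), in Scr control (blue) and MIAT knockdown (red) libraries, with same-numbered libraries joined by a line. The lines of Pdgfra, Pdgfrb, Fgfr1 and Egfr slope down in 3 of 3 pairs and those of Pdgfa, Hbegf, Areg and Met slope up, while those of Fgf2 and Ereg differ in direction between pairs.

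Among the ligands, Pdgfa, the A chain of PDGF and a ligand of the alpha receptor, rose by a small amount that was alike in the 3 pairs. It stood at 71.7, 69.3 and 53.3 CPM in control libraries 1 to 3 and at 81.6, 77.8 and 62.0 CPM in knockdown libraries 1 to 3. Knockdown library 3 lay below control libraries 1 and 2, so the groups overlapped, but the within-pair log2 differences were 0.19, 0.17 and 0.22. Over the pairs this gave a log2 fold change of 0.19 ± 0.0579 with the block (edgeR adjusted p = 0.0479), a 1.14-fold rise. This adjusted p is close to 0.05, and the call ended in DESeq2 (adjusted p = 0.269), with DESeq2 size factors in edgeR (0.0575) and with the length correction (0.0868), all with the block, as it did without pair 1 (0.173) or pair 2 (0.194). The fit without the block gave 0.06 without control library 3 and 0.30 without knockdown library 3.

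Hbegf, the heparin-binding ligand of the EGF receptor, had the highest FPKM of the 5 ligands and rose. Its levels were 148, 115 and 93.4 CPM in control libraries 1 to 3 and 184, 132 and 118 CPM in knockdown libraries 1 to 3. The highest value was in library 1 of each group and the lowest in library 3, and the groups overlapped. Within pairs the log2 difference was 0.31, 0.19 and 0.33. This was a 1.21-fold rise, or 0.28 on the log2 scale, and the standard error was 0.0559 with the block (edgeR adjusted p = 0.0114) and 0.216 without it (adjusted p = 0.528). The adjusted p with the block was 0.0671 without pair 1 and 0.0612 without pair 2. The size of the unpaired difference depended on single libraries: the fit without the block gave 0.07 when knockdown library 1 was left out, 0.13 when control library 3 was and 0.46 when control library 1 was.

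Areg, which encodes amphiregulin, had the largest difference of the 10 genes but rests on few reads and did not pass. It had 17, 11 and 7 counts in control libraries 1 to 3 and 29, 25 and 24 counts in knockdown libraries 1 to 3. These are 0.964, 0.617 and 0.375 CPM against 1.51, 1.34 and 1.25 CPM, and each knockdown library was above each control library. The within-pair log2 differences were 0.63, 1.08 and 1.66. Fitted over all libraries, the log2 fold change was 1.10 ± 0.383 with the block (edgeR adjusted p = 0.0729) and 1.06 ± 0.411 without it (adjusted p = 0.228, unadjusted p = 0.0360). Over the other 10 fits with the block the adjusted p reached 0.277 and was under 0.05 in none. The log2 fold change in the fit without the block was 0.78 when control library 3 was left out and 1.45 when control library 1 was. The count filter needs 0.546 CPM by total counts in 3 libraries, which Areg reached in 5 of 6, all but control library 3.

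The window before Areg is shown because this ligand had the largest difference and because 2 elements lie close together in it. It is at chr14:17265642-17265891 on the minus strand of GRCr8 (RefSeq), the 250 bases upstream of the annotated start, 5′ to 3′. Capitals mark a cyclic AMP response element (TGACGTCA), 91 to 84 bases before the start, and a TATA box (TATAAA), 61 to 56 bases before it. A GC box between them is left in lower case.
Areg: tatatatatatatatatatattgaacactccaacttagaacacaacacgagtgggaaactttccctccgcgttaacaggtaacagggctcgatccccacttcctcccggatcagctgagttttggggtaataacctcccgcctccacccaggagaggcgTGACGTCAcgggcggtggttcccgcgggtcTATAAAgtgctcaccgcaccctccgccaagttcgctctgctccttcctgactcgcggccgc
The first element was in 1.59% and the TATA box in 12.9% of all windows of this length, and of the 7 windows of these genes the Areg window was the single one that held either. A match describes the letters and is not evidence of binding.

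Ereg, which encodes epiregulin, did not pass and differed between pairs. Its levels were 9.35, 4.04 and 2.14 CPM in control libraries 1 to 3 and 9.21, 5.47 and 4.41 CPM in knockdown libraries 1 to 3. The pair 1 libraries were almost equal (log2 difference -0.02), while pairs 2 and 3 differed by 0.44 and 1.03. Ereg had a log2 fold change of 0.42 ± 0.214 with the block (edgeR adjusted p = 0.199). Of the 3 EGF receptor ligands together, Hbegf made up 88.8% to 95.4% of the summed FPKM in every library. That sum was 107, 77.3 and 58.7 FPKM in control libraries 1 to 3 and 138, 94.5 and 85.3 FPKM in knockdown libraries 1 to 3, higher in the knockdown library of each pair although the groups overlapped.

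Fgf2, a ligand of Fgfr1 that cells release without a signal peptide, showed no common direction. It was at 12.5, 14.0 and 7.44 CPM in control libraries 1 to 3 and at 13.9, 17.3 and 6.54 CPM in knockdown libraries 1 to 3. Library 3 was the lowest of both groups, and the within-pair log2 differences were 0.16, 0.31 and -0.19. Fgf2 had a log2 fold change of 0.12 ± 0.126 with the block (edgeR adjusted p = 0.548). Nudt6 is transcribed from the opposite strand and overlaps Fgf2. The strand setting of the counts is not given in the sources used here, so reads from the overlap cannot be assigned with certainty. Nudt6 itself stood at 1.98 ± 0.178 CPM in knockdown and 2.03 ± 0.840 CPM in control libraries (SD, n = 3), and within pairs its log2 differences were 0.33, 0.27 and -0.53, with the same signs as those of Fgf2.

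Set per gene length, in the deposited FPKM, which are not TMM-scaled, the receptors Pdgfrb and Fgfr1 had the highest means of the 10 genes in control libraries, and Ereg, Met and Areg the lowest. Pdgfrb led with 121 ± 4.43 FPKM (SD, n = 3), above 96.0% of tested genes. Fgfr1 followed with 97.0 ± 10.9, Hbegf with 74.3 ± 19.5, Pdgfra with 63.9 ± 15.9 and Pdgfa with 23.6 ± 4.33 FPKM. Egfr stood at 16.1 ± 2.60, Fgf2 at 10.8 ± 3.49, Ereg at 6.07 ± 4.53, Met at 2.92 ± 0.593 and Areg at 0.552 ± 0.266 FPKM. In this order the library ranges of Fgfr1 and Hbegf, Hbegf and Pdgfra, Pdgfa and Egfr, Fgf2 and Ereg, and Ereg and Met overlapped, while the other neighbours did not. In knockdown libraries Hbegf, at 96.9 ± 24.9 FPKM, came between Pdgfrb at 108 ± 3.28 and Fgfr1 at 85.5 ± 10.7 FPKM, and its range overlapped both. The rest of the order was the same.

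**Figure D3:**
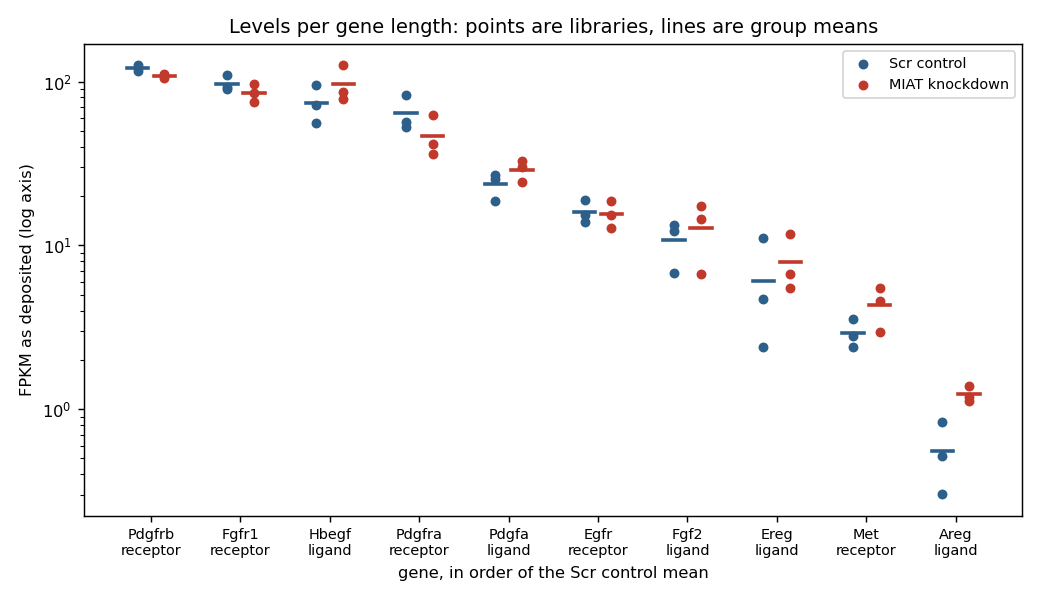
Level of the 10 genes per gene length, in FPKM as deposited (y axis, logarithmic), in Scr control (blue) and MIAT knockdown (red) libraries, with a point for each library and a line at each group mean. The genes run from Pdgfrb, at 121 FPKM in control libraries, to Areg, at 0.552 FPKM, with receptors and ligands mixed along the order.

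The numbered libraries also differed from each other. In 6 of the 10 genes the mean log2 difference between libraries 3 and 1, taken over both groups, was larger in size than the mean within-pair difference between the groups. The same count was not made over all tested genes, so this is not shown to be particular to the 10. Pdgfra was higher in library 3 than in library 1 by 0.73 in control and 0.81 in knockdown libraries. Ereg was lower in library 3, by 2.11 in control and 1.06 in knockdown libraries, and Hbegf by 0.67 and 0.64. Pdgfa, Fgf2, Met and Areg were also lower in library 3 than in library 1 in both groups. The differences were smaller in Egfr, at -0.05 in control and -0.25 in knockdown libraries, Pdgfrb, at 0.03 and 0.12, and Fgfr1, at 0.14 and 0.22. What separates the numbered libraries is not given in the labels, and these differences have no test.

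**Figure D4:**
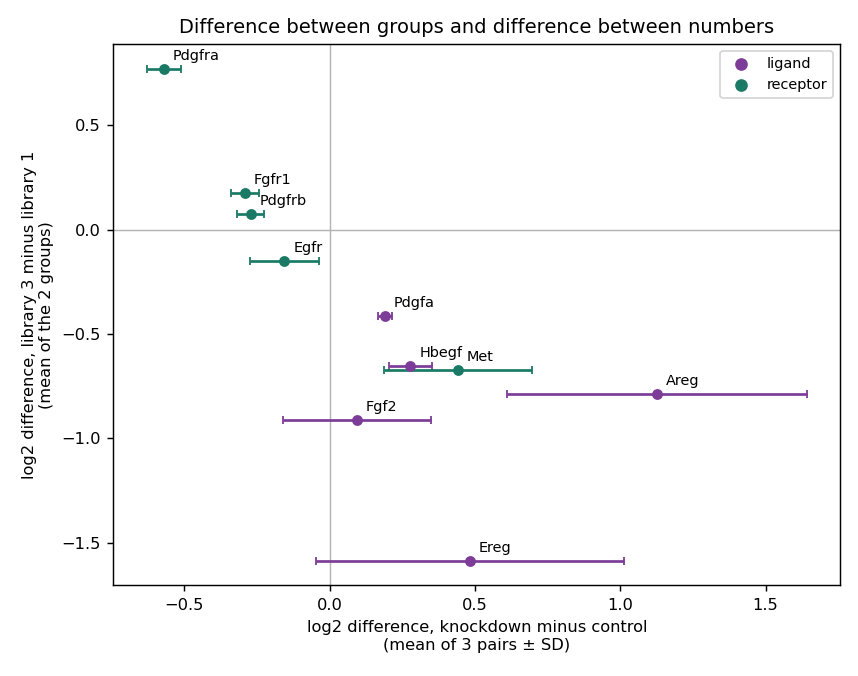
For each of the 10 genes, the mean log2 difference of knockdown minus control over 3 pairs with its SD (x axis) and the mean log2 difference of library 3 minus library 1 over both groups (y axis), with ligands in purple and receptors in green. Pdgfra lies at the upper left, at -0.57 and 0.77, and the 5 ligands and Met lie at the lower right, so that for 9 of the 10 genes, all but Egfr, the signs are opposite. How many of all tested genes have opposite signs was not counted.

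Of the other PDGF ligands, Pdgfc and Pdgfd were tested and neither passed. Pdgfc was at 21.2 ± 3.48 CPM in knockdown and 22.4 ± 6.53 CPM in control libraries (SD, n = 3), and Pdgfb, the B chain that binds both PDGF receptors, at 0.314 and 0.407 CPM was below the filter. Of 5 other FGF ligands tested 3 fell and 0 rose, where 11.1% of all tested genes fell. In DESeq2 with the block 1 of the 5 fell, Fgf10, and without pair 3 4 of the 5 did. Of all tested genes 11.8% were called in DESeq2 with the block and 30.3% without pair 3. Fgf10 fell 1.44-fold, from 14.1 ± 3.94 to 9.77 ± 2.62 CPM, and Fgf1 1.40-fold, from 8.01 ± 1.33 to 5.72 ± 0.819 CPM, both ligands of FGF receptors. The third was Fgf9, named after its values were seen, at 1.33 against 2.91 CPM. Fgf7, the keratinocyte growth factor and the FGF ligand with the most counts, was at 299 ± 49.3 against 375 ± 109 CPM and did not pass (edgeR adjusted p = 0.0708 with the block). It was called in 3 of the 11 fits with the block, with no filter, with the length correction (-0.35) and without pair 3 (-0.49), and its log2 fold change was -0.16 without pair 1. The Fgf9 call ended in DESeq2 with the block. The Fgf1 call ended with the block in DESeq2, with the length correction and when scaled by total counts. Without pair 1 or pair 2 none of these 5 ligands passed, where 8.93% and 5.41% of all tested genes did.

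Of 3 other EGF family ligands tested, none passed in either direction. Tgfa, which encodes transforming growth factor alpha, another ligand of the EGF receptor, was at 45.9 ± 10.9 CPM in knockdown and 53.7 ± 9.71 CPM in control libraries (SD, n = 3), a log2 fold change of -0.24 (edgeR adjusted p = 0.0634 with the block). Of 5 other receptors tested, 1 fell, Fgfr3, by a log2 fold change of 0.41. The soluble receptor-like gene Pdgfrl was at 28.4 ± 6.31 against 32.3 ± 8.78 CPM and did not pass. The Fgfr3 call ended with the block in DESeq2 (-0.42, adjusted p = 0.128) and under total count scaling (-0.31, 0.0836). Without pair 1 or pair 2 none of the other receptors passed, where 8.93% and 5.41% of all tested genes did.

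Co-receptors and heparan sulfate chains hold growth factors at the cell surface. Of 20 tested co-receptors and heparan sulfate genes 9 fell, 0 rose and 11 did not pass, against 11.1% falling among all tested genes, with a median log2 fold change of -0.25. With total counts and the block 2 rose and 6 fell, where 2822 of all 13423 tested genes rose and 819 fell. With the length correction and the block 1 rose and 7 fell, where 1276 of all tested genes rose and 1018 fell. Hspg2, which encodes the heparan sulfate proteoglycan perlecan, fell from 1149 ± 130 to 742 ± 78.3 CPM (SD, n = 3), and Sulf1 and Sulf2, extracellular enzymes that remove sulfate groups from heparan sulfate, fell 1.42-fold and 1.59-fold. These 3 passed in all 11 fits with the block. With the length correction the log2 fold changes of Hspg2, Sulf1 and Sulf2 were -0.41, -0.40 and -0.63, against -0.63, -0.50 and -0.67 without it. Without the block 5 of the 20 co-receptor genes, 7 of the 15 sheddase genes, 7 of the 27 RAS to ERK genes and 4 of the 16 PI3K and AKT genes described next had an unadjusted p under 0.05, against 19.2% of all tested genes, and edgeR called none.

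Of 15 tested sheddases, activating proteases and related genes 6 fell (all tested genes 11.1%), 1 rose (10.5%) and 8 did not pass, with a median log2 fold change of -0.22 (all tested genes -0.01). The sheddase gene Adam12 fell from a mean of 1652 to 1204 CPM, a log2 fold change of -0.46, Pcsk5, a proprotein convertase gene, fell 1.66-fold, and Plat, the tissue plasminogen activator gene, fell 1.51-fold. Adam17, the main protease that sheds EGF receptor ligands, averaged 120 against 136 CPM and did not pass (edgeR adjusted p = 0.133 with the block). The gene that rose was Rhbdf2, whose product iRhom2 takes part in the maturation of ADAM17, with a log2 fold change of 0.38. Adam17 and Rhbdf2 were named after their values were seen. Without pair 2, 4 of the 20 co-receptor genes and 3 of the 15 sheddase genes fell, where 388 of all 13607 genes tested in that fit fell. Rhbdf2 did not pass in it. With the length correction and the block 5 of the 15 sheddase genes fell and 1 rose, where 1018 of all tested genes fell and 1276 rose. The log2 fold changes of Adam12, Pcsk5 and Plat were then -0.33, -0.49 and -0.61, against -0.46, -0.73 and -0.59 without the correction.

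The cascades inside the cell start from adaptors at the receptor. Of 27 tested genes of the RAS to ERK cascade and its adaptors 8 fell (all tested genes 11.1%), 2 rose (10.5%) and 17 did not pass, with a median log2 fold change of -0.05. In DESeq2 with the block 2 fell and 0 rose, or 7.41% of the list against 11.8% of all tested genes. Rps6ka2, a ribosomal S6 kinase gene downstream of ERK, fell by a log2 fold change of 0.44, Braf by 0.30, and Sos2, a RAS exchange factor gene, rose by 0.30. Ptpn11, which encodes the phosphatase SHP2, fell by 0.21. In DESeq2 with the block the calls of Braf (adjusted p = 0.119), Sos2 (0.170) and Ptpn11 (0.0710) ended, and with the length correction Braf was at -0.12 (adjusted p = 0.336). The split of the list depends on scaling: with total counts and the block 5 rose and 1 fell, and with the length correction 2 rose and 3 fell. Over all tested genes 2822 rose and 819 fell with total counts, and 1276 rose and 1018 fell with the length correction. Without pair 1 or pair 2 none of the 27 passed, where 8.93% and 5.41% of all tested genes did. Of 16 PI3K and AKT genes 5 fell (all tested genes 11.1%), 0 rose and 11 did not pass, and in DESeq2 with the block 2 fell, or 12.5% against 11.8% of all tested genes called. Among the 5 were Rptor (log2 fold change -0.36), Pik3r1 (-0.28) and Pik3r3 (-0.28), whereas Akt1 was at 292 ± 18.7 against 299 ± 14.1 CPM (SD, n = 3). With total counts 1 of these 16 fell, and with the length correction 2 fell and 1 rose. Without pair 1, 1 of them fell, and without pair 2 none passed. Of the 11 fits with the block, Rptor was called in 10, Pik3r1 in 7 and Pik3r3 in 5. The Rptor call ended without pair 2 (edgeR adjusted p = 0.110). The Pik3r1 call also ended with total counts (edgeR adjusted p = 0.0851) and with the length correction (-0.13, 0.189). The Pik3r3 call ended in DESeq2 (adjusted p = 0.132) and without each of the 3 pairs, among other fits.

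ERK induces response genes, some of which encode inhibitors of the pathway. Only RNA was measured here, so the activity of ERK in these cells is not known. Among 20 genes that respond to ERK, 8 rose, 0 fell and 12 did not pass, against 10.5% rising among all tested genes, with a median log2 fold change of 0.24. Without the block 1 of the 20 had an unadjusted p under 0.05, against 19.2% of all tested genes. Fosl1, which encodes the AP-1 factor FRA1, rose from 34.2 ± 15.1 to 63.7 ± 25.3 CPM (SD, n = 3), Myc by a log2 fold change of 1.14 and Ier3 by 0.62. Of 25 inhibitors 8 rose (all tested genes 10.5%), 4 fell (11.1%) and 13 did not pass, and without the block 7 had an unadjusted p under 0.05. Spry2, a Sprouty inhibitor of receptor tyrosine kinase signalling, rose from 50.5 ± 18.3 to 87.0 ± 33.5 CPM, Dusp6, the phosphatase of ERK, 1.62-fold, Dusp5, the phosphatase of nuclear ERK, 2.05-fold, and Socs5 by a log2 fold change of 0.50. Dusp5, Dusp6, Spry2, Spry4 and Dusp4 are in both lists, and Spry4 and Dusp4 did not pass. Over the 11 fits with the block 6 to 9 ERK response genes rose, the fewest in DESeq2, and 2 fell without pair 3 and 0 in the other 10 fits. Over all tested genes 348 (without pair 2) to 2822 (total counts) rose, with 661 in DESeq2, and 2200 fell without pair 3. Inhibitors that rose numbered 5 without pair 2 and 7 or 8 in the other fits, and those that fell 0 without pair 2, 1 without pair 1 and 2 to 6 in the others. Without pair 2 Socs5 had an adjusted p of 0.0508, and in DESeq2 with the block Ier3 had 0.107.

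**Figure D5:**
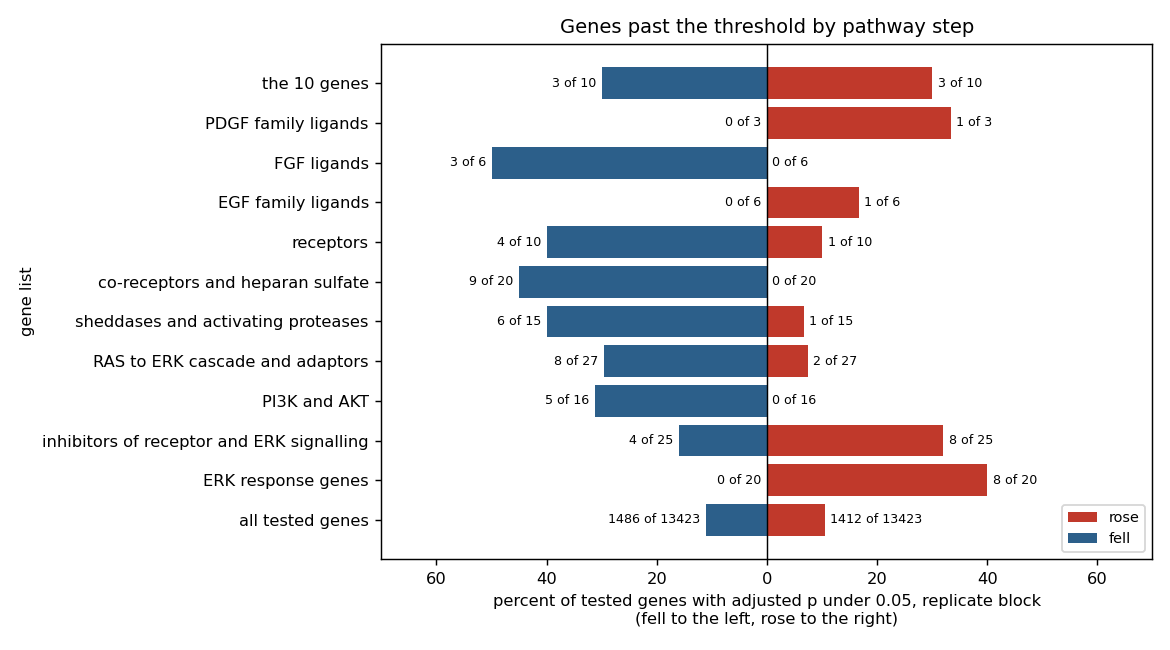
Share of the tested genes of each list that passed an edgeR adjusted p of 0.05 with the replicate block (x axis, percent), falls to the left in blue and rises to the right in red, for the 10 genes, 10 lists of the pathway and all tested genes. The lists named for ligands and receptors include the 10 genes in this plot; co-receptors and heparan sulfate genes have 9 of 20 falls and 0 rises, and ERK response genes 8 of 20 rises and 0 falls.

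The genes whose log2 CPM followed each of the 10 most closely over the 6 libraries were found by Pearson's correlation among the tested genes of at least 5 CPM. Over 6 libraries many genes are alike: between 37 and 186 genes had a coefficient over 0.95 with a given one of the 10. The closest were Akap12 for Pdgfa, Far1 for Fgf2, Baz2a for Hbegf, Noc2l for Areg and Map2k3 for Ereg. For the receptors they were Gatd3a for Pdgfra, Plpp5 for Pdgfrb, Evc2 for Fgfr1, Aplp2 for Egfr and Senp2 for Met. The coefficients were 0.992 to 0.999 and are a description of these libraries, which share the spread between library numbers. Of these 10 genes Akap12, which encodes a scaffold protein for kinases, rose by a log2 fold change of 0.45 (edgeR adjusted p = 0.00344 with the block), and the other 9 did not pass.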

How the data were processed

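Polyadenylated RNA of 6 libraries was sequenced. The authors deposited counts (whole numbers per gene symbol, not normalized) and FPKM values, each equal to its count over a gene length and the library total (relative tolerance 1e-06). No source used here gives the aligner, counter, strand setting or genome build. Symbols were used as deposited.

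Counts were filtered with filterByExpr, scaled with TMM and tested in edgeR 4.0.16 (R 4.3.3) with the quasi-likelihood test, knockdown against control, Benjamini-Hochberg adjustment over 13423 genes and a threshold of 0.05. The standard error is the absolute log2 fold change divided by the square root of the F statistic. Within-pair differences are of log2 CPM after adding 0.5 to each count. The numbers in the titles were taken to pair the libraries, because every same-numbered pair's correlation of deviations from the group means was over 0.1. Libraries of different numbers had correlations of -0.55 to -0.05. This rule was applied to the same libraries that were then tested, so it does not establish a pairing. No label states such a pairing. Residual degrees of freedom were 4 without the block and 2 with it. Libraries of a group differed by more than counting noise (chi-square over degrees of freedom at least 17.1), so none was treated as a repeated deposit; this does not show that they are separate cultures. The scripts were run on simulated data in which same-numbered libraries shared an effect. The check was that the block fit returned the simulated size of change. As the pairing was built in, this says nothing on whether the real libraries are paired.

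Alternatives were DESeq2 1.42.0, limma-voom (limma 3.58.1), limma-trend on log2 FPKM with pseudocounts of 1 and 0.1, other scalings and filters, and leaving out each library or pair. Chosen after seeing the data were other scalings, filters and limma-voom with the block, and a loess curve (span 0.5) on gene length. The 10 genes, the lists, the markers and the tests were chosen with earlier results of these data known. Named were the 10 genes, Nudt6, up to 3 further genes of each list with the largest change past the threshold and at least 5 CPM in the fits without and with the block, or the most abundant gene where none passed, and the closest gene by correlation. Promoter windows are from RefSeq (GRCr8), cut to the 250 bases before the start.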

Additional observations from a re-analysis of the deposited data

How the results depend on the processing

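Without the replicate block, 0 of the 10 genes and 0 of all tested genes passed under edgeR with TMM, DESeq2 size factors or total counts, with either other filter, in limma-voom, in limma on log2 FPKM with either pseudocount, or without any 1 library; DESeq2 called 1 of the 10 and 699 of all genes. With the replicate block the counts were 6 and 2898 in edgeR, 4 and 1590 in DESeq2, 6 and 3051 in limma-voom, 5 and 3641 with total counts, 5 and 2961 with DESeq2 size factors, 6 and 3128 with no filter, 6 and 2909 with at least 1 CPM in 3 libraries, and 4 and 2294 with the length correction. Leaving out a library without the block, or a pair with it, gave 0 to 6 of the 10 and 0 to 4124 of all genes; with the block the counts were 1 and 1195 without pair 1, 1 and 736 without pair 2, and 6 and 4124 without pair 3. Fewer samples leave 1 residual degree of freedom there.

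With total counts the median over all genes was 0.098 in place of -0.01 (log2 fold change, replicate block), and 2822 genes were higher and 819 lower, against 1412 and 1486. No gene of the 10 changed direction under another scaling, filter or tool. Without 1 library or pair Fgf2 ranged from -0.14 to 0.47 and Ereg from -0.078 to 1.04: Fgf2 reversed without knockdown library 2, control library 3 or (with the block, -7.3e-04) pair 2, and Ereg without knockdown library 1 or control library 3. Values near 0 also reversed: Pdgfc to 0.050 and 0.058 on log2 FPKM (pseudocounts 1 and 0.1) and to 0.042 and 0.054 with total counts without and with the block, Akt1 to 0.069 and 0.070 and to 0.071 and 0.070 likewise, and Nudt6 to 0.045 and 0.12 and to 0.076 and 0.11. Nudt6 was also 1.1e-04 with the block, 0.0073 with the block in DESeq2, 0.020 in limma-voom and 0.0089 with the block and no filter. Leaving out a library or pair gave Pdgfc -0.23 to 0.19, Pdgfrl -0.36 to 0.040, Akt1 -0.086 to 0.0065 and Nudt6 -0.24 to 0.35, with 0.063 for Pdgfc and 0.31 for Nudt6 without pair 3 with the block. The cause was not tested.

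The counts of Areg, 7 to 29 per library, limit how well a difference in it can be measured.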
